A study of Mus musculus with 2 samples.

Results

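Capillary and venous endothelial cells are the cells that line the small exchange vessels and veins of the tooth germ. They were taken from single-cell RNA sequencing of mandibular first molar germs of newborn mice on a C57 black 6 background. In the deletion library the mice carried K14cre;Edarfl/fl, in which a Cre driven by the keratin 14 promoter acts on Edar alleles flanked by loxP sites. In the control library the mice carried Edarfl/fl, the same floxed alleles without the Cre. Each genotype was 1 library, and the number of germs and pups behind each is not given in the sources used here. K14cre acts in keratin 14 epithelium, and not by design in vessels, so the comparison asks how vessel cells of the germ differ when the epithelium has lost Edar. A barcode counted as a member when it held at least 500 genes and at most 20% mitochondrial unique molecular identifiers (UMIs, counts of single transcripts), at least 4 UMIs summed over Pecam1, Cdh5, Kdr, Egfl7, Esam and Cldn5, and at most 1 UMI of Epcam, Ptprc and Tyrobp. It also had to hold at most 100 UMIs of Col1a1, Col1a2 and Col3a1 per 10000, and at most 1 UMI of the arterial genes Gja4, Gja5, Sox17 and Hey1. These values chose the cells, so they are given as description and carry no test. Of 28918 kept barcodes, 1659 were members, 761 in the K14cre;Edarfl/fl library and 898 in the Edarfl/fl library.

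Capillaries exchange oxygen, nutrients and fluid with tissue, and veins collect the blood and are the main site where leukocytes leave it. New vessels sprout from tip cells that follow VEGF through its receptor KDR. Behind them, apelin and its receptor, Notch ligands, angiopoietins and the basement membrane shape stalk cells into tubes. In the tooth germ, capillaries with fenestrated walls come to lie beside the odontoblasts and the enamel organ when the hard tissues start to form. Endothelial cells also answer interferons and other cytokines with chemokines such as CXCL10, which attracts activated T cells, and with selectins, which let leukocytes roll on the vessel wall.

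The genes that set the 2 libraries apart in these cells include targets of interferon. The 250 bases before the RefSeq start site (GRCm38.p6) are shown for 3 of the genes that were higher in the deletion library, because each holds GAAANNGAAA, the core of the element bound by interferon regulatory factors. The letters are written 5′ to 3′ on the gene's strand, with matches in capitals. The promoters are chr5:92348890-92349139 for Cxcl10, chr4:156200819-156201068 for Isg15 and chr11:48871421-48871670 for Irgm1, all on the minus strand.
Cxcl10: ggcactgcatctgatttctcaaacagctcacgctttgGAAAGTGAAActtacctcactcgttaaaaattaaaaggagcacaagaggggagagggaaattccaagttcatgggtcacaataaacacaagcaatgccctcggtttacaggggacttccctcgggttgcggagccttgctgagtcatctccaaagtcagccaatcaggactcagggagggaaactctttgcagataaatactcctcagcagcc
Isg15: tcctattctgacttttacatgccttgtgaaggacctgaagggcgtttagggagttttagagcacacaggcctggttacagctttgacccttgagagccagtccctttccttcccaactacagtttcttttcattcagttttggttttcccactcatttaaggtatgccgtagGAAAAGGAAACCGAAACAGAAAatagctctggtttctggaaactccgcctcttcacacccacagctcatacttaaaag
Irgm1: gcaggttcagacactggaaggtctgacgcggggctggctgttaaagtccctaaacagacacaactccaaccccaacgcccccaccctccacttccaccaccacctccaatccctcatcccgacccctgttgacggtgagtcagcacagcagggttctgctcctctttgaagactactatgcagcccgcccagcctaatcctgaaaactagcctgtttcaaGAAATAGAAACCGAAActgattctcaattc
The Cxcl10 match begins 213 bases before the start site. Isg15 holds 3 overlapping matches that begin 78, 72 and 66 bases before it, and Irgm1 holds 2 that begin 30 and 24 bases before it. The motif, searched on both strands over 250 bases before to 50 after the start, was found in 1131 of 32851 RefSeq promoters (3.44%) and in 98 of 2612 promoters of genes at the minimum level used below (3.75%). Of the 44 genes higher past 1.5-fold, leaving out sex-linked and haemoglobin genes, 31 had a promoter in the table, and 5 of these held it (Cxcl10, Eif2ak2, Fosl2, Irgm1 and Isg15). Of the 25 genes lower past 1.5-fold, 17 had a promoter, and 0 held it. A match describes letters and does not show that a factor bound there.

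The label was checked first. Emcn, a sialomucin of capillary and venous endothelium that the rule did not use, stood at 903 CPM (UMIs of the gene per 1000000 UMIs summed over the cells) in the deletion library and 1020 CPM in the control, against 6.04 and 6.20 CPM in other barcodes. Plvap, the protein of the diaphragms that span fenestrae, stood at 614 and 559 CPM, against 3.46 and 3.35 CPM in other barcodes. After every cell was thinned to 2000 UMIs, Emcn was detected in 78.0% of the deletion cells and 80.6% of the control cells, and in 0.53% and 0.54% of barcodes with no endothelial UMI. Plvap was detected in 65.9% and 65.3%, against 0.20% and 0.35% of barcodes with no endothelial UMI. Both genes therefore lay far above the level that free RNA gives. Of the genes the rule used, Pecam1 stood at 1226 and 1355 CPM, Cdh5 at 1139 and 1300 CPM, and Kdr at 775 and 1056 CPM. At the edge of the rule, cells with exactly 4 endothelial UMIs (22 and 31) had 221 and 136 CPM of Emcn, and barcodes just outside with 3 (37 in each library) had 136 and 248 CPM. Cells with 1 arterial UMI (252 and 297) had 912 and 1007 CPM of Emcn, and those just outside with 2 (99 and 136) had 831 and 1062 CPM.

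Depth was alike in the members of both libraries. The median was 2850 UMIs and 1352 genes per cell in the deletion library and 2837.5 UMIs and 1393.5 genes in the control. The summed UMIs were 2586257 and 3178832. Over all kept barcodes the medians were 3351 and 4468 UMIs. Female cells express Xist: 40.3% of members in the deletion library and 22.8% in the control had Xist without Y-linked UMIs. Y-linked UMIs without Xist were seen in 19.4% and 28.4%. Both libraries thus hold cells of both sexes, in unequal mixture. Of the barcodes, 4 occurred in both libraries, and 0 of these were members. With 1 library per genotype there is no replicate check, so no p-value is given, and every interval below covers counting error only. Intervals of levels, shares and count ratios are 95% (exact Poisson, Clopper-Pearson and conditional binomial). Ranges for differences in shares set the intervals of both libraries against each other.

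Edar, the targeted gene, was at the floor in these cells. It had 3 UMIs (1.16 CPM, interval 0.24 to 3.39) in the deletion library and 3 UMIs (0.94 CPM, 0.19 to 2.76) in the control. Kept barcodes with at least 2 Epcam UMIs, which mark epithelium, had 17.6 CPM (13.2 to 22.8) and 26.8 CPM (22.6 to 31.6). Tags of this assay come from transcript ends and need not fall in the deleted exons, and this level may therefore not check the deletion. Eda2r, a second receptor for ectodysplasin, had 1 and 3 UMIs in the members.

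Fewer of the barcodes of the deletion library were capillary and venous endothelial cells. They were 4.91% of kept barcodes (interval 4.58 to 5.27%) there and 6.69% (6.27 to 7.12%) in the control. The difference of -1.77 percentage points spans -2.54 to -1.0 when the intervals are set against each other. Arterial endothelial cells, which passed the same rule with at least 2 arterial UMIs, numbered 238 and 322. Members were thus 76.2% (73.4 to 78.8%) and 73.6% (71.0 to 76.1%) of the endothelial cells of each library, and these intervals overlap. Enzymatic digestion, a sieve and dead-cell removal came before capture and can set such shares; their part was not tested.

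The members formed 11 sub-clusters, all of which kept Pecam1 and Cdh5. Sub-cluster 0 (250 cells) was led by Depp1, Fabp4 and Cd36, of which the last 2 encode fatty acid carriers. It was called capillary-like because 17 capillary markers had a median log2 ratio of 0.64 over the other members. Of these markers 10 were detected in at least 25% of its cells, which does not single it out. Sub-clusters 7 and 8, described below, detected 10 and 13, at medians of 5337 and 4544 UMIs against 2184. Arterial markers also stood higher in sub-cluster 0, with a median log2 ratio of 0.50 and 3 of 17 detected. Its 10 leading genes included Cxcl12 and Igfbp3, which were lower in members than in arterial cells. The name capillary-like therefore does not set it apart from arterial genes. Sub-cluster 4 (116 cells), called tip-like, was led by Rab15, Kcne3, Angpt2, Tfpi2 and Esm1. Sub-cluster 2 (223 cells) was cycling, with Birc5, Ccna2 and Ube2c at its head. Sub-cluster 3 (386 cells) was led by Cxcl10, Selp, Irgm1, Iigp1 and Tiparp, and sub-cluster 6 (26 cells), called lymphatic-like, by Ccl21a, Lyve1, Reln and Mmrn1. In sub-cluster 6 Emcn had 1 UMI in each library, so these 26 cells went against the label. Sub-clusters 1 (325 cells, led by Fam181b and Zfp791) and 5 (158 cells, led by Pdgfd and Ccser1) stay unnamed, with medians of 2341 and 1759.5 UMIs. Sub-cluster 9 (16 cells) was led by Fndc1, Eln and Htr2b. It detected 13 of 17 venous markers in at least 25% of its cells, with a median log2 ratio of 1.47 over the other members. Sub-cluster 3 detected 11 of the venous markers, with a median of 0.26, and sub-cluster 5 detected 5, with 0.29. These genes describe the groups that the clustering made and are not findings.

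**Figure D1:**
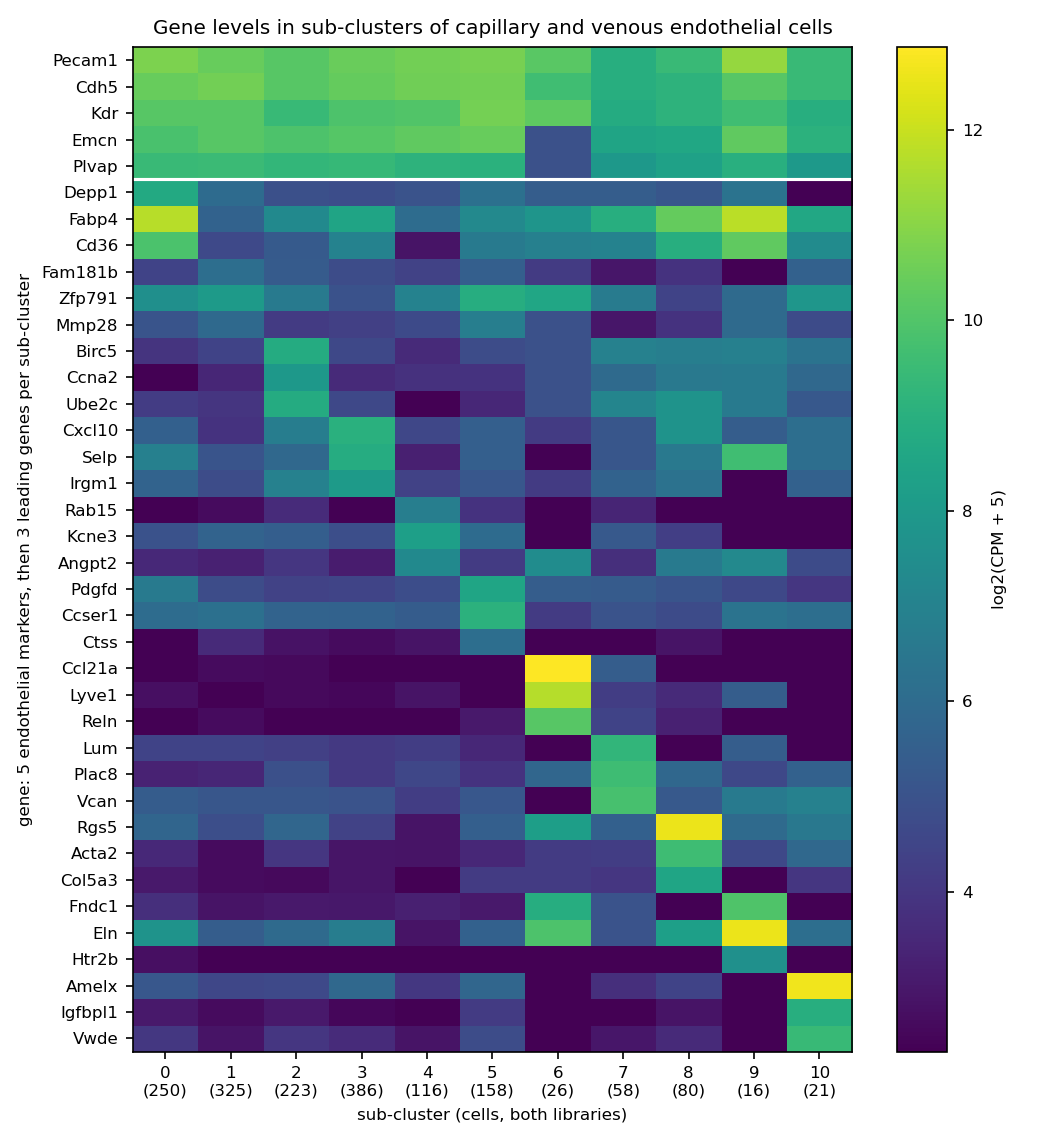
Colour shows the level as log2(CPM + 5) of each gene (rows) in each of the 11 sub-clusters (columns, with their number of cells over both libraries). The upper 5 rows are endothelial markers and the rest are the 3 leading genes of each sub-cluster; Pecam1 and Cdh5 run through all columns, and sub-clusters 7, 8 and 10 also carry Lum, Rgs5 or Amelx.

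A further 159 of the 1659 cells sat in sub-clusters led by genes of other cell types. Sub-cluster 7 (58 cells) was led by Lum, Plac8 and Vcan and detected 10 of 10 mesenchyme markers. Sub-cluster 8 (80 cells) was led by Rgs5 and Acta2 and detected 8 of 10 mural markers, the genes of pericytes and smooth muscle. Sub-cluster 10 (21 cells) was led by Amelx, the amelogenin gene of enamel, and keratins, and detected 7 of 9 epithelium markers. Together they held 11.2% (9.02 to 13.6%) of the deletion cells and 8.24% (6.53 to 10.2%) of the control cells. The doublet caller Scrublet marked 20 of 761 and 11 of 898 members. Results that rest on these cells are given below with and without them.

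The share of cycling cells was larger in the deletion library, near the limit of counting error. Sub-cluster 2 held 15.8% (13.3 to 18.6%) of its members and 11.5% (9.46 to 13.7%) of the control members, with intervals that overlap slightly, and none of its leading genes differed 2-fold within it. After thinning to 2000 UMIs, which left out 198 and 233 cells, at least 2 UMIs of 26 genes of G2 and M phase were found in 43.3% and 34.7% of members (50.5% and 43.3% before thinning). The difference of 8.60 points spans 0.71 to 16.4 points when the intervals are set against each other. Barcodes with no endothelial UMI gave 29.8% and 27.3% by the same count. All other barcodes carried these genes at 1392 and 1323 CPM, against 1583 and 1522 CPM in the members, so that share does not measure free RNA, whose part was not tested. The level of these genes shifted less than the share, with a median log2 ratio of 0.10 and 15 of 26 genes above 0. Sub-cluster 1 went the other way, with 15.4% (12.9 to 18.1%) and 23.2% (20.4 to 26.1%). Lymphatic-like cells were 1.97% and 1.22%, with intervals that overlap (1.11 to 3.23% and 0.61 to 2.18%). Sub-cluster 8 held 5.78% (4.23 to 7.68%) and 4.01% (2.82 to 5.51%), and these intervals overlap. The shares of sub-clusters 0, 3, 4, 5, 7, 9 and 10 are not compared, because genes that define them themselves differed 2-fold within them. For the same reason the pooled share of sub-clusters 7, 8 and 10 given above is a description and not a comparison.

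Few genes differed between the libraries. A call needed a level of at least 50 CPM in either library, a difference of at least 2-fold on the scale of CPM + 5, and a count ratio whose interval excluded 1. Among 3362 genes at that level, the deletion library had 7 higher (0.208%) and 2 lower (0.0595%). At 1.5-fold, 47 were higher (1.4%) and 25 lower (0.744%). The 7 higher genes were Cxcl10, Hba-a1, Tiparp, Isg15, Zfp703, Samsn1 and Gadd45b, and the 2 lower genes were Amelx and Depp1. Of these, Cxcl10, Tiparp, Zfp703, Gadd45b and Depp1 kept their direction and passed 1.5-fold in each of 18 other ways of choosing, weighting or scaling the cells, as did Atf3, Jund, Sox18 and Aplnr. Over the 10399 genes with at least 5 CPM, 36.8% had a log2 ratio above 0 and the median was -0.09, which is the background for the lists below. Scaling by median of ratios moved that median by 0.09 and gave 85 higher and 14 lower genes at 1.5-fold, 85.9% higher, against 65.3% with the scaling used here. Other settings gave more lower than higher genes: 24 and 39 with equal weight for each sub-cluster (38.1% higher), 51 and 56 with equal weight for each cell, 80 and 106 with members thinned, 38 and 56 without sub-cluster 3, and 124 and 246 at a minimum of 10 CPM (counts of higher, then lower, genes). The split between higher and lower genes is thus not a stable result. With equal weight for each sub-cluster, the 2-fold rule gave 5 higher and 3 lower genes, of which 2 and 1 were among the 7 and 2 above.

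**Figure D2:**
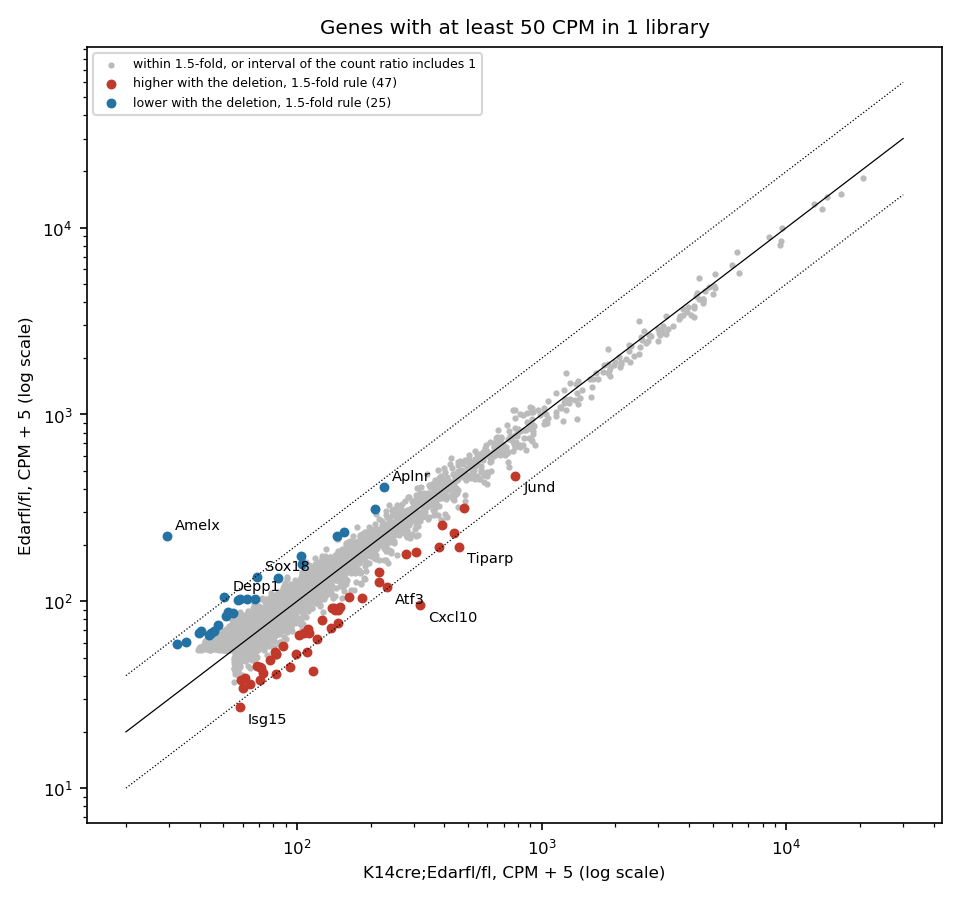
Each point is 1 of 3362 genes, with its level in the K14cre;Edarfl/fl library on the x axis and in the Edarfl/fl library on the y axis, both as CPM + 5 on log scales. The solid line marks equal levels and the dotted lines 2-fold; red points (47) are higher and blue points (25) lower with the deletion by the 1.5-fold rule, with Cxcl10 and Tiparp furthest to the right of the line among well-counted genes and Aplnr on the other side.

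Transcripts of apelin and of its receptor were both lower in the deletion library. Aplnr (chromosome 2, 85136225 to 85139923 of mm10), the receptor that guides vein and capillary growth, had 221 CPM (203 to 240, 572 UMIs) in the deletion library and 402 CPM (380 to 425, 1278 UMIs) in the control. That is a log2 ratio of -0.85, with an interval of 0.50 to 0.61 for the count ratio. After thinning it was detected in 30.2% of deletion cells and 50.5% of control cells, against 0.14% and 0.18% of barcodes with no endothelial UMI. Aplnr was lower in all 8 sub-clusters of at least 50 cells, which come from the same 2 libraries and are not replicates. In capillary-like cells it stood at 306 and 524 CPM, in sub-cluster 3 at 194 and 386 CPM, and in tip-like cells at 185 and 358 CPM. Apln (chromosome X, 48025146 to 48034853), which encodes the peptide apelin and marks tip cells, had 140 CPM (126 to 156) and 217 CPM (201 to 234), a log2 ratio of -0.61. Apln was lower in 5 of those 8 sub-clusters, with 582 and 736 CPM in tip-like cells. Its ratio stayed below 0 in 18 of 18 other settings and passed 1.5-fold in 11 of them. In arterial cells Aplnr had 142 and 214 CPM and Apln 167 and 242 CPM.

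Transcription factors of endothelium were not shifted as a group, but Sox18 and Meox1 were lower. Of 26 measured factors, 9 had a log2 ratio above 0 and 2 passed the 1.5-fold rule, both lower, and the median was -0.13. Sox18 (chromosome 2, 181669836 to 181671640), a factor of vein and lymphatic vessel development, had 63.4 CPM (54.1 to 73.9, 164 UMIs) in the deletion library and 130 CPM (118 to 143, 413 UMIs) in the control, a log2 ratio of -0.98. It was detected in 11.2% and 20.9% of thinned cells. Meox1 (chromosome 11, 101877510 to 101894374), a homeobox gene, had 78.9 and 129 CPM (log2 ratio -0.67). Both Sox18 and Meox1 were lower in all 8 larger sub-clusters. Arterial cells had 81.5 and 158 CPM of Sox18, and 52.4 and 92.5 CPM of Meox1. The most abundant factors moved less: Tcf4 stood at 611 and 710 CPM, Epas1, the HIF-2 alpha gene, at 385 and 446 CPM, Elk3 at 380 and 456 CPM and Klf4 at 432 and 344 CPM.

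Depp1 (chromosome 6, 116650609 to 116652794), a target of FOXO factors, had 45.2 CPM (37.4 to 54.2, 117 UMIs) in the deletion library and 318 UMIs (89.3 to 112 CPM) in the control. Its log2 ratio was -1.06. Capillary-like cells held 43.6% of its UMIs in the deletion library and 64.5% in the control, and Depp1 stood there at 190 and 611 CPM. It was lower in 5 of the 8 larger sub-clusters and higher in 3, with 23.9 and 21.6 CPM in sub-cluster 3, 48.5 and 30.7 CPM in sub-cluster 7 and 35.4 and 26.8 CPM in sub-cluster 8. Arterial cells had 62.7 and 149 CPM, and other barcodes 0.42 and 0.43 CPM, and Depp1 was thus lower in arterial cells too. Of 15 measured capillary genes, 3 lay above 0 and 12 below, with a median of -0.24, and Aplnr was the 1 past 1.5-fold. Kdr is on this list too, and without it 3 of 14 lay above 0 and the median was -0.23. The fatty acid carriers did not move together. Fabp4 stood at 725 and 626 CPM (log2 ratio 0.21), Cd36 at 183 and 227 CPM (-0.31), Rgcc at 361 and 439 CPM (-0.28) and Cav1, the main protein of caveolae, at 585 and 680 CPM (-0.22). In cells with Xist and no Y-linked UMI the median of the capillary list was 0.06, so its direction was not the same in them.

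Sprouting genes had a median slightly below that of all genes, while their count above 0 was near the background. Of 15 measured tip cell and sprouting genes, 6 lay above 0 and 9 below, where 36.8% of all genes lay above 0. The median was -0.24, against -0.09 over all genes, and 2 of the 15 passed the 1.5-fold rule, Apln and Kcne3. Kcne3, a potassium channel subunit gene and tip marker, had 39.4 and 62.9 CPM (log2 ratio -0.61). Others did not share that direction: Dll4, the Notch ligand of tip cells, had 111 and 104 CPM (0.09). Col4a2 had 1250 and 1652 CPM (-0.40), Lamb1 368 and 428 CPM (-0.21) and Mcam 281 and 358 CPM (-0.34).

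Receptors and ligands of the VEGF and angiopoietin systems had a median slightly below the background, while their count above 0 was near it. Of 14 measured genes, 5 lay above 0, where 36.8% of all genes did, and 0 passed 1.5-fold. The median was -0.20, against -0.09 over all genes. Without Kdr, which the rule used, 5 of 13 lay above 0 and the median was -0.18. Flt1, which binds and holds back VEGF, had 715 CPM in the deletion library and 873 CPM in the control (log2 ratio -0.29). Tie1 had 397 and 485 CPM (-0.28), and Ptprb, the phosphatase that limits TIE2, 375 and 454 CPM (-0.27). Kdr itself had 775 and 1056 CPM (-0.44), with no call at 1.5-fold. The ranges over the 18 other settings, -0.29 to -0.11 for this list and -0.40 to -0.01 for the sprouting list, stayed below 0. The median of all genes in the main setting, -0.09, also lay below 0.

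Genes of the basement membrane lay mostly below 0, by small amounts. Of 20 measured genes, 3 lay above 0 and 17 below. The median was -0.21, and 0 passed 1.5-fold. The summed level of the list was 18311 CPM in the deletion library and 21642 CPM in the control. Sparc, a collagen-binding protein gene and the most abundant of them, had 6255 and 7428 CPM (log2 ratio -0.25), and Col4a1, the type IV collagen chain of the vascular sheath, 4377 and 5378 CPM (-0.30). Sparcl1 had 1015 and 1077 CPM (-0.09). The sum of the list was also lower in arterial cells (20546 and 24186 CPM) and in other barcodes (8127 and 9927 CPM), so its direction is not particular to the members. In other barcodes Sparc stood at 4760 and 7016 CPM. Col4a1 (373 and 346 CPM) and Sparcl1 (124 and 84.5 CPM) went the other way there. Junction and surface genes had 4 of 18 above 0 and a median of -0.20. That list holds Esam and Cldn5, which the rule used, and without them 3 of 16 lay above 0 and the median was -0.25. Among them Cd93 had 811 and 1007 CPM, Cd34 1059 and 1174 CPM, and Ctnnb1, the cadherin partner beta-catenin, 909 and 1083 CPM.

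Cxcl10 was the gene most increased in the deletion library. Cxcl10 (chromosome 5, 92346638 to 92348889) had 313 CPM (292 to 335, 809 UMIs) in the deletion library and 90.6 CPM (80.4 to 102, 288 UMIs) in the control. That is a log2 ratio of 1.73, with an interval of 3.01 to 3.96 for the count ratio. It was detected in 21.7% and 9.32% of thinned cells, against 4.82% and 2.55% of barcodes with no endothelial UMI. Its UMIs sat mainly in sub-cluster 3, which held 80.5% of them in the deletion library and 64.9% in the control. There Cxcl10 stood at 742 and 252 CPM, in mural-gene-led cells at 328 and 98.3 CPM, and in capillary-like cells at 55.9 and 29.8 CPM. Cxcl10 was higher in 5 of the 8 larger sub-clusters and lower in 3, with 7.1 and 10.6 CPM in sub-cluster 1, 40.6 and 41.0 CPM in sub-cluster 5 and 30.3 and 30.7 CPM in sub-cluster 7. Arterial cells had 324 and 153 CPM, and other barcodes 81.9 and 55.5 CPM. Cells with Xist and no Y-linked UMI had 180 and 84.3 CPM, and cells with Y-linked UMIs and no Xist 630 and 119 CPM. The log2 ratios of 1.05 and 2.35 in these 2 sets of cells had the same direction, and a link of their size to sex was not tested.

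Interferon-response genes were higher in part. Isg15 (chromosome 4, 156199424 to 156200818), a ubiquitin-like protein gene induced by type I interferon, had 53.4 CPM (44.8 to 63.0, 138 UMIs) in the deletion library and 22 CPM (17.2 to 27.8, 70 UMIs) in the control, a log2 ratio of 1.11 that passed 1.5-fold in 12 of the 18 other settings. Isg15 was higher in 7 of the 8 larger sub-clusters. The guanosine triphosphatase genes Iigp1 and Irgm1, induced by interferon gamma, had 94.3 and 47.5 CPM (0.92) and 145 and 88.4 CPM (0.68). Of the 24 genes of the interferon and antigen presentation list, 17 lay above 0, Isg15 was the 1 past 1.5-fold, and the median was 0.14. Iigp1 and Irgm1 stand outside that list. The abundant members moved little: B2m had 883 and 747 CPM, Ifitm3 761 and 633 CPM, Ly6c1 593 and 632 CPM, and Ly6e 527 and 570 CPM. Isg15 in arterial cells had 64.4 and 26.1 CPM, and in other barcodes 5.01 and 4.09 CPM. In cells with Xist and no Y-linked UMI the list had a median of -0.09 and Isg15 had 34.6 and 25.2 CPM, whereas cells with Y-linked UMIs and no Xist had 89.5 and 24.9 CPM of Isg15.

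**Figure D3:**
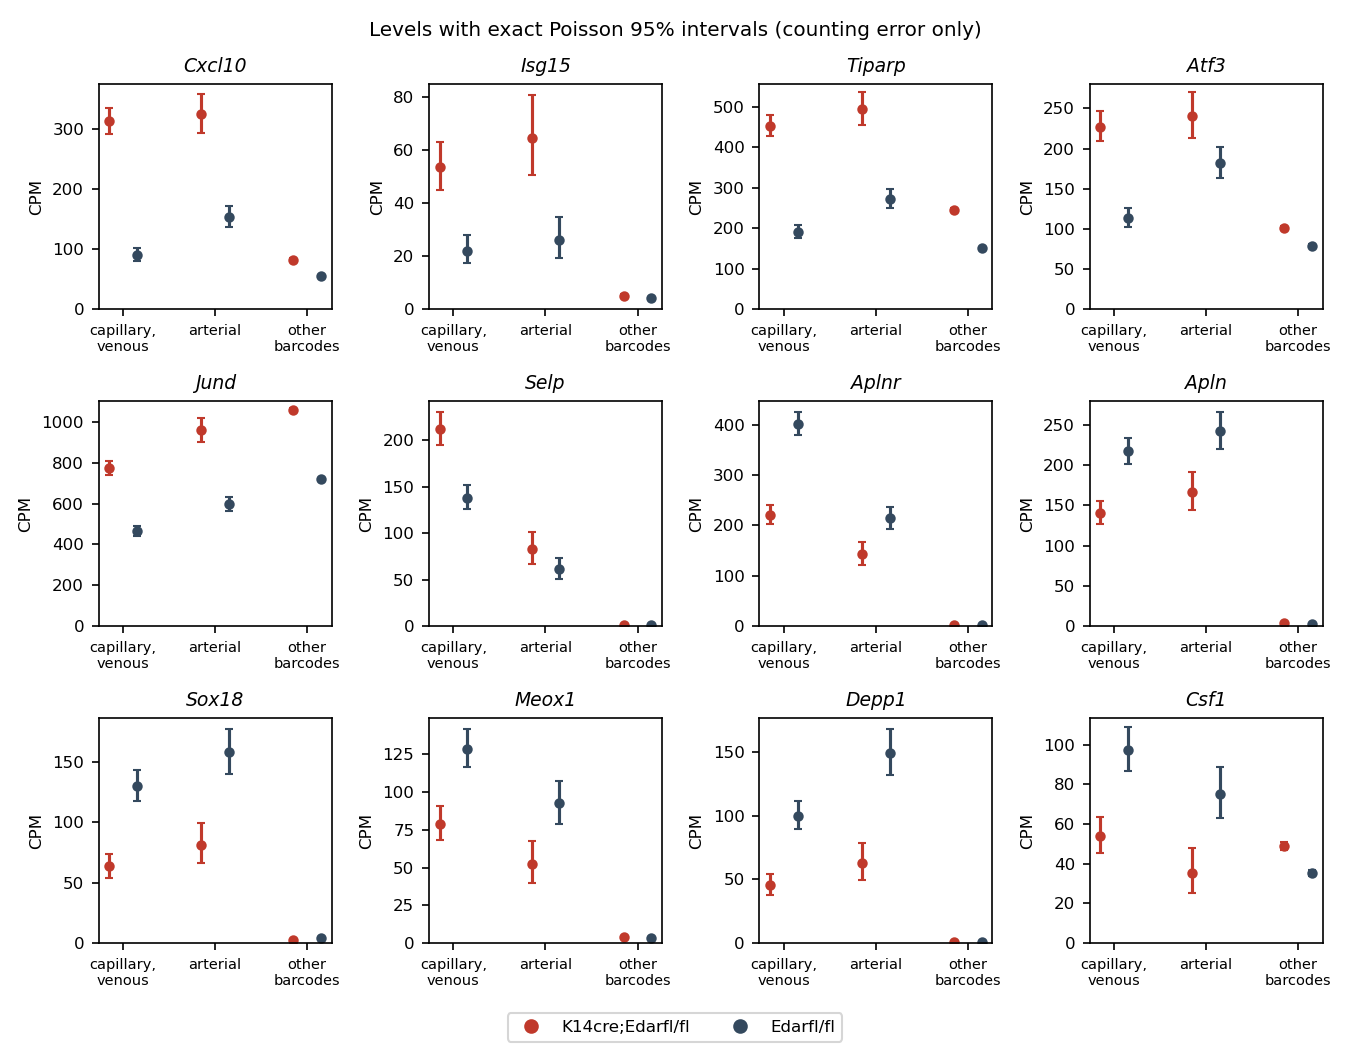
Each panel gives the CPM of 1 gene in capillary and venous endothelial cells, arterial endothelial cells and all other barcodes, for the K14cre;Edarfl/fl library (red, left of each pair) and the Edarfl/fl library (dark, right). Bars are exact Poisson 95% intervals and cover counting error only; Cxcl10, Isg15, Tiparp, Atf3 and Jund are higher, and Aplnr, Apln, Sox18, Meox1 and Depp1 lower, in both endothelial groups of the deletion library.

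Immediate early genes, which switch on within minutes of a stimulus or of tissue dissociation, lay above 0 nearly as a whole. Of 23 measured genes, 22 lay above 0, 5 passed the 1.5-fold rule (Atf3, Jund, Maff, Fosl2 and Dusp1), and the median was 0.42, with a range of 0.28 to 0.58 over the other settings. Atf3, a stress-induced factor (chromosome 1, 191170296 to 191218039), had 227 CPM (209 to 246) in the deletion library and 114 CPM (102 to 126) in the control, a log2 ratio of 0.97. Atf3 was higher in 7 of the 8 larger sub-clusters. Jund had 773 and 466 CPM (0.72), Maff 121 and 74.6 CPM (0.67), Fosl2 387 and 250 CPM (0.62) and Dusp1 475 and 312 CPM (0.60). Fos, the most abundant, had 1431 and 1222 CPM (0.23). The list was also higher in the deletion library outside these cells. The summed level of the list was 10634 and 8298 CPM in the members, 13750 and 10433 CPM in arterial cells, and 12439 and 8841 CPM in all other barcodes. Heat shock genes were also mostly above 0, at 14 of 15 with a median of 0.24 and 0 past 1.5-fold, with Hspa8 at 1602 and 1403 CPM. The part of dissociation stress in the differences was not tested.

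Tiparp (chromosome 3, 65528410 to 65555518), a mono-ADP-ribosyltransferase gene and a target of the aryl hydrocarbon receptor, had 454 CPM (428 to 481, 1174 UMIs) in the deletion library and 191 CPM (176 to 207, 608 UMIs) in the control. Its log2 ratio was 1.23, and it was higher in 7 of the 8 larger sub-clusters. Arterial cells had 494 and 273 CPM and other barcodes 246 and 151 CPM. Gadd45b, a stress gene, had 76.9 and 35.9 CPM (1.00), and it was higher in all 8 larger sub-clusters, as was Jund. Zfp703 had 88.9 and 39.6 CPM (1.07), with 124 and 71.8 CPM in arterial cells and 74.2 and 45.1 CPM in other barcodes. Samsn1, an adaptor protein gene, had 105 and 48.8 CPM (1.03), against 70.4 and 59.3 CPM in arterial cells and 11.9 and 12.9 CPM in other barcodes.

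Selectins for leukocyte rolling were higher, while the venous list as a whole stood near 0. Selp, the P-selectin gene of veins (chromosome 1, 164115264 to 164150026), had 212 CPM (194 to 230) in the deletion library and 138 CPM (125 to 152) in the control, a log2 ratio of 0.60. Selp was higher in 6 and lower in 2 of the 8 larger sub-clusters. Sele, the E-selectin gene, had 65.7 and 39.3 CPM (0.67). Selp was a defining gene of sub-cluster 3, where it stood at 513 and 379 CPM and which held 82.3% and 64.0% of its UMIs. With sub-cluster 3 left out, Selp had 56.8 and 64.8 CPM (-0.18). Leaving out cells that were grouped in part by Selp removes its high values by construction, so this cannot show where the difference comes from. Of 16 measured venous genes, 7 lay above 0, 3 were higher past 1.5-fold (Selp, Sele and Eln), and the median was -0.03. The venous factor gene Nr2f2 had 220 and 247 CPM (-0.17), Ephb4, the venous receptor for ephrin-B2, 192 and 217 CPM (-0.17), Icam1 571 and 579 CPM (-0.02) and Nrp2 191 and 224 CPM (-0.22). Eln, the elastin gene, had 211 and 121 CPM (0.77), and 40.7% and 24.1% of its UMIs came from the 7 and 9 cells of sub-cluster 9. Eln was lower in 6 of the 8 larger sub-clusters, and arterial cells had 321 and 569 CPM (-0.82), so its higher sum does not describe most of these cells.

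Other paracrine genes moved singly. Csf1 (chromosome 3, 107741048 to 107760469), a growth factor for macrophages and osteoclasts, had 53.7 CPM (45.2 to 63.5) in the deletion library and 97.5 CPM (87.0 to 109) in the control, a log2 ratio of -0.80. Csf1 was lower in 7 of the 8 larger sub-clusters. In other barcodes it stood the other way, at 48.8 and 35.4 CPM. Ednrb, an endothelin receptor gene, had 203 and 308 CPM (-0.59). Hbegf, a ligand of the EGF receptor, had 177 and 121 CPM (0.54) and the chemokine gene Cxcl1 424 and 414 CPM (0.03). Of 20 measured angiocrine ligands, 11 lay above 0, and the median was 0.04. Smad7, an inhibitor of TGF-beta and BMP signalling, had 136 and 86.5 CPM (0.63), and Id3, a BMP target, 1217 and 913 CPM (0.41). These differences were not particular to the members. In other barcodes Smad7 had 116 and 78.7 CPM, Id3 724 and 603 CPM and Hbegf 56.58 and 43.05 CPM. Arterial cells had 174 and 112 CPM of Smad7. Of the 22 measured genes of the BMP, ALK1 and TGF-beta list, Smad7 was the 1 past 1.5-fold, and the median was 0.04. Notch genes had a median of 0.01, with Hes1 at 902 and 738 CPM and Notch1 at 221 and 208 CPM.

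The EDA, TNF and NF-kB list had a median near 0. Of 18 measured genes, 7 lay above 0, 0 passed 1.5-fold, and the median was -0.02. Nfkbia, the NF-kB inhibitor that NF-kB itself induces, had 594 and 462 CPM (0.36), and Nfkbiz 341 and 279 CPM (0.29). Wnt genes had a median of -0.22 over 16 measured genes with 0 past 1.5-fold, Fzd4, the frizzled receptor of endothelium, having 161 and 192 CPM. Lists of fenestration and caveolae (-0.12), brain vessel barrier (-0.05), fatty acid handling (-0.08), guidance (-0.12), vasoactive and coagulation (-0.17), hypoxia and glycolysis (0.00), S phase (0.02), flow response (0.13), metallothionein and zinc (0.13), leukocyte adhesion (-0.02), arterial (0.08) and apoptosis and p53 genes (0.08) had medians between -0.17 and 0.13. The barrier and arterial lists hold genes that the rule used, and without those their medians were -0.10 and 0.08. Ribosomal protein genes had 76 of 82 above 0 (median 0.13), and mitochondrial genes 5 of 13 (-0.05).

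**Figure D4:**
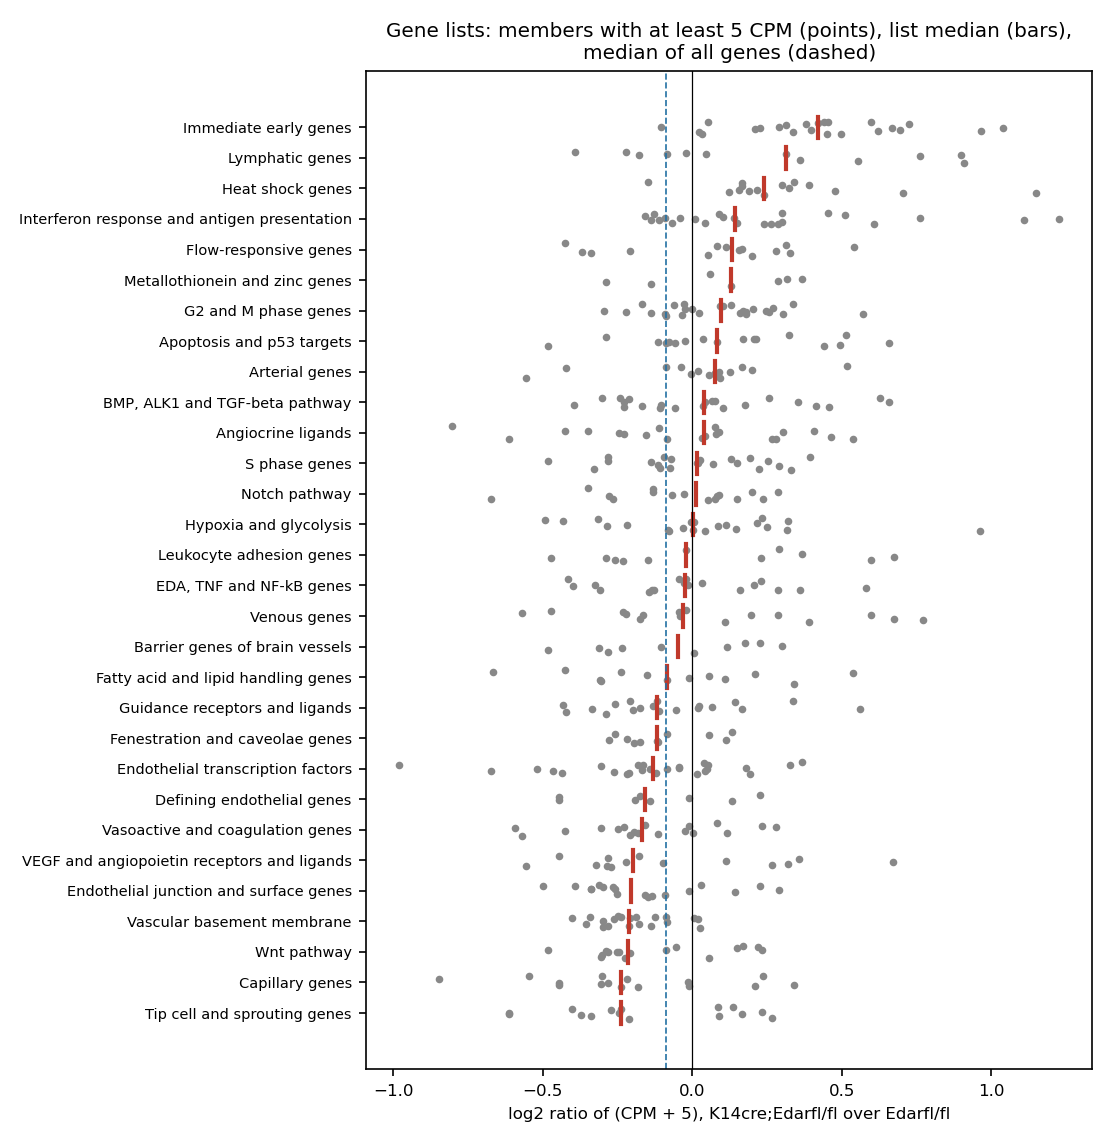
Each grey point is the log2 ratio of (CPM + 5), K14cre;Edarfl/fl over Edarfl/fl, of 1 gene with at least 5 CPM, grouped by list, and each red bar is the median of its list. The dashed line is the median of all such genes (-0.09); of the 30 lists drawn, which leave out markers of other cell types, immediate early genes stand highest at 0.42, and tip cell and capillary genes lowest at -0.24.

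Some of the widest ratios followed genes of other cell types. Amelx (chromosome X, 169176114 to 169187200) had 24.4 CPM (63 UMIs) in the deletion library and 218 CPM (692 UMIs) in the control, a log2 ratio of -2.92. A single control cell held 71.7% of those UMIs. Without the highest cell of each library Amelx stood at 13.5 and 61.7 CPM (-1.85), and other barcodes had 747 and 991 CPM. Summed over 9 epithelium markers, none of them at 0, the members had 86.2 and 266 CPM, of which Amelx gave 24.4 and 218 CPM. Of the 6 epithelium markers with at least 5 CPM, 3 lay above 0 and 3 below, with a median of 0.07. The lower sum thus does not describe these markers as a group. Lum, a proteoglycan gene of mesenchyme, had 34.8 and 62.9 CPM (-0.77), and Vcan, a matrix proteoglycan gene, 116 and 57.6 CPM (0.95), against 1185 and 602 CPM in other barcodes. The 10 mesenchyme markers summed to 1391 and 1722 CPM, of which 1201 and 1489 CPM came from the 3 collagens that the rule caps, and the other markers summed to 191 and 233 CPM. The 10 mural markers summed to 715 and 771 CPM, and no marker of either list was at 0. Hba-a1 had 112 and 37.4 CPM, but 70.6% and 87.4% of its UMIs came from 1 cell in each library. The 6 erythroid markers summed to 326 and 218 CPM, with 1 of them at 0 in each library. Without the cells of sub-clusters 7, 8 and 10, the 2-fold rule gave 9 higher and 2 lower genes, of which 7 and 1 were those of the full set. Amelx was not among the 2 lower genes there, and Lum had a log2 ratio of 0.13.

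Lymphatic genes lay above 0 on balance, through few cells. Of 13 measured genes, 8 lay above 0, 2 were higher past 1.5-fold, and the median was 0.31. Lyve1, a hyaluronan receptor gene of lymphatic vessels, had 65.3 and 32.7 CPM (0.90), and the chemokine gene Ccl21a, counted at the copy ENSMUSG00000094686, 142 and 71.7 CPM (0.94). Ccl21a has near-identical copies, so its count is uncertain. Prox1, the master factor of lymphatic identity, had 80 and 76 UMIs (30.9 and 23.9 CPM). Cells with at least 2 UMIs of Prox1, Lyve1, Mmrn1 and Reln were 34 (4.47%, 3.11 to 6.19%) and 31 (3.45%, 2.36 to 4.86%), and these intervals overlap.

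Set against arterial cells of the same library, the genes named first were chosen for differing one way in both libraries, so their agreement is no result. Selp was higher in members than in arterial cells, with 212 against 82.4 CPM in the deletion library and 138 against 61.0 CPM in the control. Igfbp5, an IGF-binding protein gene, had 240 against 118 CPM and 210 against 99.1 CPM. Aplnr had 221 against 142 CPM and 402 against 214 CPM. Lower in members were Sema3g, an arterial semaphorin gene (18.2 against 118 CPM, and 18.2 against 122 CPM), the chemokine gene Cxcl12 (13.9 against 69.5 CPM, and 12.9 against 109 CPM) and Unc5b, a guidance receptor gene of arteries and tip cells (64.6 against 226 CPM, and 56.9 against 226 CPM). Arterial cells were deeper, with medians of 4121 and 4570.5 UMIs. Other genes turned between the libraries. Cd36 had 183 against 91.8 CPM in the deletion library and 227 against 297 CPM in the control, Fabp4 725 against 518 CPM and 626 against 839 CPM, and Samsn1 105 against 70.4 CPM and 48.8 against 59.3 CPM. The control values of Samsn1 rest on 155 member and 109 arterial UMIs, and its turn was not set against counting error. Among control members, 1 cell held 11.5% of the Cd36 UMIs and 1 cell 14.9% of the Fabp4 UMIs. The rule split these cells by arterial genes, so genes that move with those are a description.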

How the data were processed

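Dissociated cells of newborn molar germs were captured on the BD Rhapsody microwell system in 2 libraries, with 16029 and 13990 barcodes in K14cre;Edarfl/fl and Edarfl/fl. The authors deposited whole-number counts of UMIs for every gene in every barcode, not normalized. STARsolo and the mm10 build were used, per the submitters' processing notes; their version, annotation and barcode filter were not stated there. Gene positions come from GENCODE M21, which matched 31107 of 31253 features, and promoters from RefSeq. Genes with a repeated symbol were kept apart by identifier.

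Counts were summed over the cells of a library and scaled to CPM, counts per 1000000 of their total; log2 ratios used a pseudocount of 5 CPM. A gene's ratio had a 95% conditional binomial interval. Called genes had at least 50 CPM in 1 library. Gene lists used members with at least 5 CPM. Sub-clusters used 2000 variable genes, 20 components, 15 neighbours and Leiden resolution 0.6 (scanpy 1.11.5, Python 3.11.15). Doublets were left as the rule leaves them, and Scrublet calls were left out as an alternative. Scrublet marked 1.57% and 1.31% of kept barcodes. The comparison of genes between libraries was tested on simulated counts with known fold changes, which held counting error only. The other steps were not tested on simulated data. The members and lists were chosen with earlier results of these data known. Named genes were up to 15 a direction past 2-fold, filled to 10 a direction from those past 1.5-fold; of each list up to 4 of the most abundant and those past 1.5-fold; up to 15 ratios a direction against arterial cells; and the 10 leading genes of sub-clusters. Sex-linked, haemoglobin, mitochondrial and ribosomal protein genes were kept out of ranked lists. Prox1 and Eif2ak2 were named outside that rule, after their values were seen. The rule also chose 4 lower genes that are not described above. These were Yeats2 (log2 ratio -0.86), Lrp4 (-0.82), Il17rd (-0.78) and Pmepa1 (-0.78). Lrp4 was lower in all 8 larger sub-clusters and the other 3 in 7 of them. Other cells of the germ were not analysed here beyond the totals given.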

Additional observations from a re-analysis of the deposited data

Results flagged for a closer look

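Several genes moved in opposite directions with the deletion in cells with Xist and no Y-linked UMI and in cells with Y-linked UMIs and no Xist. The difference between these sets of cells was not tested, since each comes from the same 2 libraries. Among capillary genes, Fabp4 had a log2 ratio of 1.42 in Xist-only cells (812 and 301 CPM) and -1.17 in Y-only cells (279.9 and 635 CPM), and Cd36 had 1.34 and -2.26. Among genes of mural cells, Acta2 had 3.94 and -1.33, Notch3 1.04 and -1.07, and Abcc9 0.98 and -1.33. The Acta2 ratios rest on 121 and 2 UMIs in Xist-only cells and 11 and 53 in Y-only cells (deletion, then control). Over all members, the highest cell held 30.2% of the Acta2 UMIs in the deletion library and 29.3% in the control. The sub-cluster led by Rgs5 and Acta2 held 86.6% and 93.3% of them, so these ratios do not describe most members. Matrix and secreted protein genes were Eln at 1.22 and -0.68, Serpine2 at 0.97 and -0.71, Thbs1 at 0.86 and -0.92 and Olfml2b at 0.81 and -1.03. Mt2, a metallothionein gene, had 1.29 and -0.75, Crip1 0.77 and -0.76, and Itpr1, a calcium channel gene, 0.61 and -0.81.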

How the results depend on the processing

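No paired analysis was possible because each genotype is 1 library. Against 7 higher and 2 lower genes at 2-fold, at least 1000 genes and at most 10% mitochondrial UMIs gave 13 and 6, members thinned to 2000 UMIs 12 and 6, equal weight for each cell 11 and 5, and leaving out cells with G2 and M phase UMIs 14 and 8. Xist-only cells gave 11 and 10, Y-only cells 42 and 49, a minimum of 10 CPM 19 and 9, no minimum 23 and 12, and median of ratios 14 and 1. Thinning before the rule gave 4 higher, 0 arterial UMIs 5 lower, and a total without mitochondrial, ribosomal protein and haemoglobin genes 12 higher. Leaving out sub-cluster 3, chosen after seeing the data as was leaving out sub-clusters 7, 8 and 10, gave 13 and 5. The cause was not tested for any of these.

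Directions turned for Lum at 20 collagen UMIs per 10000 (0.74), without G2 and M phase cells (0.22) and without sub-clusters 7, 8 and 10 (0.13), and for Selp without sub-cluster 3 (-0.18). In Xist-only cells Sele had -0.019 and Vcan -0.40. In Y-only cells Eln had -0.68, Hba-a2 -0.61, Hba-a1 -0.28 and Ccl21a -0.12. Thinning before the rule gave Eln -0.19, Hba-a2 -0.48 and Hba-a1 -0.12, and leaving out G2 and M phase cells gave Ccl21a -0.46. The difference in the share of members held its direction under every alternative run. Depth limits the ratios of genes near 50 CPM, such as Isg15 with 138 and 70 UMIs.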
